A study of Mus musculus with 21 samples.

Results

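The non-collagen core of the extracellular matrix was followed as 38 genes of glycoproteins and proteoglycans, 16 of the basement membrane and 22 of the interstitium, in whole livers of mice with and without a deletion of Gata4 in liver sinusoidal endothelium. Members were taken by their symbol in the platform annotation, which named a row for 36 of them (16 basement membrane and 20 interstitial genes) among 25428 rows; the other 2 were not analysed here. The control group was 11 livers of genotype wt, described as siblings, and the knockout group was 10 livers of genotype gata4-lsec-ko. Knockouts came from a cross of the Clec4g-icre driver line with a floxed Gata4 line, so recombination was tied to cells that use Clec4g regulatory sequence, and the sources used here do not say whether controls carried the driver or the floxed allele. Both groups were on the diet labelled std; age and sex were not given. Total RNA of each whole liver was biotin-labelled and hybridised to 1 Affymetrix array. The labels call the livers biological replicates, so each was counted as 1 animal.

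A basement membrane is a thin sheet in which laminin trimers of an alpha, a beta and a gamma chain and a type IV collagen network are joined by nidogen and by heparan sulfate proteoglycans such as perlecan. The sinusoids of a healthy liver lack a continuous sheet of this kind, and portal vessels, central veins and bile ducts have one. The interstitial matrix holds fibronectin, elastic microfibrils with their fibulins, and small leucine-rich proteoglycans that bind collagen fibrils; in liver, stellate cells and portal fibroblasts are known makers of it, and hepatocytes make the plasma form of fibronectin.

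Values are log2 signals after robust multi-array averaging (RMA) by the authors, which forces the same distribution on each array, with a median of 3.75 and quartiles of 2.98 and 6.12. Sample numbers in the descriptions fall into 2 runs: run 1 holds 5 controls and 4 knockouts, run 2 holds 6 of each. The labels do not say what a run stands for, and run was a term in the model. The hepatocyte markers had a mean log2 level of 12.9 to 13.1 in controls and 12.8 to 13.2 in knockouts, well over the upper quartile of the arrays. Gata4 itself ran from 6.34 to 7.35 in controls and from 6.10 to 6.92 in knockouts, a difference that did not pass (adjusted p = 0.264), and Clec4g fell by 0.92 ± 0.23 (SE; adjusted p = 0.0176), a call that was lost when run was dropped from the model (adjusted p = 0.0529) and with the replicate number as a block (adjusted p = 0.0757). The block fit left out control replicate 11, which has no knockout of its number. Control replicate 3 stood apart from the other controls: it exceeded the control mean of its run for 30 of the 36 genes, and its macrophage marker level (7.91) was above every knockout (6.87 to 7.83). Control replicate 11 did so for 29 genes and had the highest smooth muscle marker level of all livers (5.68, against a control median of 4.49). Calls that change without either liver are named beside the gene.

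The matrix genes that changed were all higher in knockout livers. Lamb1, Nid1 and Sparc of the basement membrane and Efemp1, Fbln5, Ltbp1, Bgn, Dcn and Lum of the interstitium rose, by 1.24-fold (Ltbp1) to 2.77-fold (Nid1). These were 9 of 36 genes at an adjusted p under 0.05 (limma, adjusted over all rows), where 3.28% of all genes were higher and 7.33% differed in either direction. None of the 36 was lower, where 4.05% of all genes were. At an unadjusted p under 0.05 in limma the members split into 17 higher and 0 lower. Of all 25428 genes 2392 were higher and 3305 lower at that level (22.4% in either direction). Without control replicate 3 the count of higher members was 13, and without control replicate 1 the gamma chain gene Lamc3 passed as lower (-0.22, adjusted p = 0.0429). Over all genes, 1030 were lower; this fell to 629 and 661 when control replicates 8 and 9, in turn, were omitted. All 10 knockout livers lay above the control mean of their run in 11 of the 36 genes, against 3.23% of all genes, but the ranges of the groups overlapped for every member, where 0.0905% of all genes had each knockout above each control and 0.0393% each below. A whole liver does not tell more cells of a type from more RNA per cell.

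Over the 16 basement membrane genes the median log2 difference was 0.07, and over the 20 interstitial genes it was 0.31, beside -0.01 over all genes. Of the basement membrane genes 3 rose (18.8%) and of the interstitial genes 6 rose (30.0%). Without control replicate 3 the counts were 5 of the basement membrane, when Lamc1 and Smoc2 also passed, and 8 of the interstitium, when Thbs1 and Thbs2 did. The difference between the 2 compartments was not tested. No gene was counted in both compartments. Efemp1 was counted as interstitial, although its protein is also found in basement membranes, and other assignments were not tried. As a mean over genes relative to the control mean of the run, the basement membrane level ran from -0.23 to 0.28 in controls (median -0.02) and from -0.03 to 0.49 in knockouts (median 0.24), so 6 controls lay above the lowest knockout. The interstitial level ran from -0.40 to 0.35 in controls and from 0.20 to 0.56 in knockouts (median 0.38), with 2 controls above the lowest knockout. Control replicate 3 had the highest control level in both compartments.

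**Figure D1:**
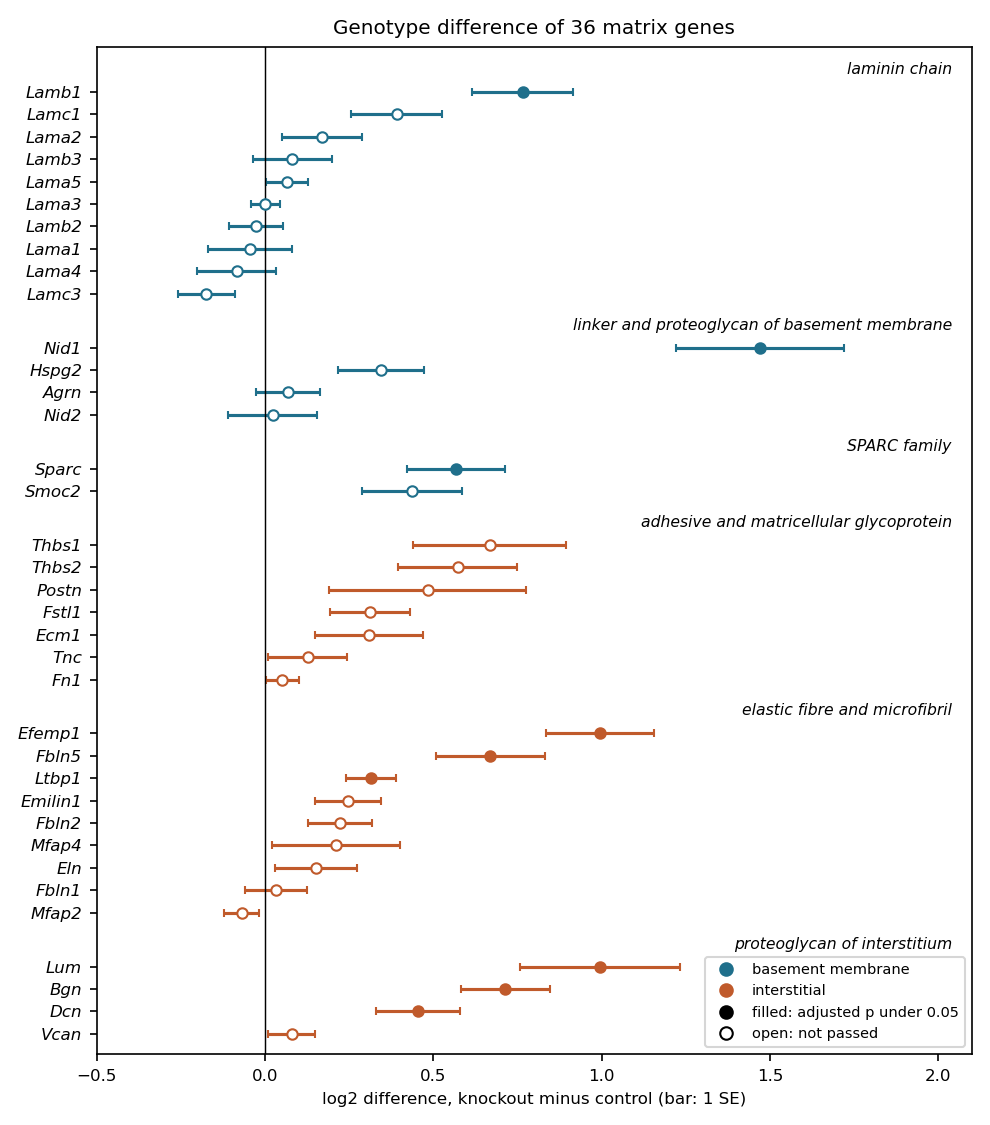
Log2 difference between knockout and control livers (x axis; point and 1 SE, limma with run as a term) for each of the 36 genes, grouped by role. Filled points passed at an adjusted p under 0.05; 9 did, all to the right of 0, with Nid1 the farthest at 1.47.

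**Figure D2:**
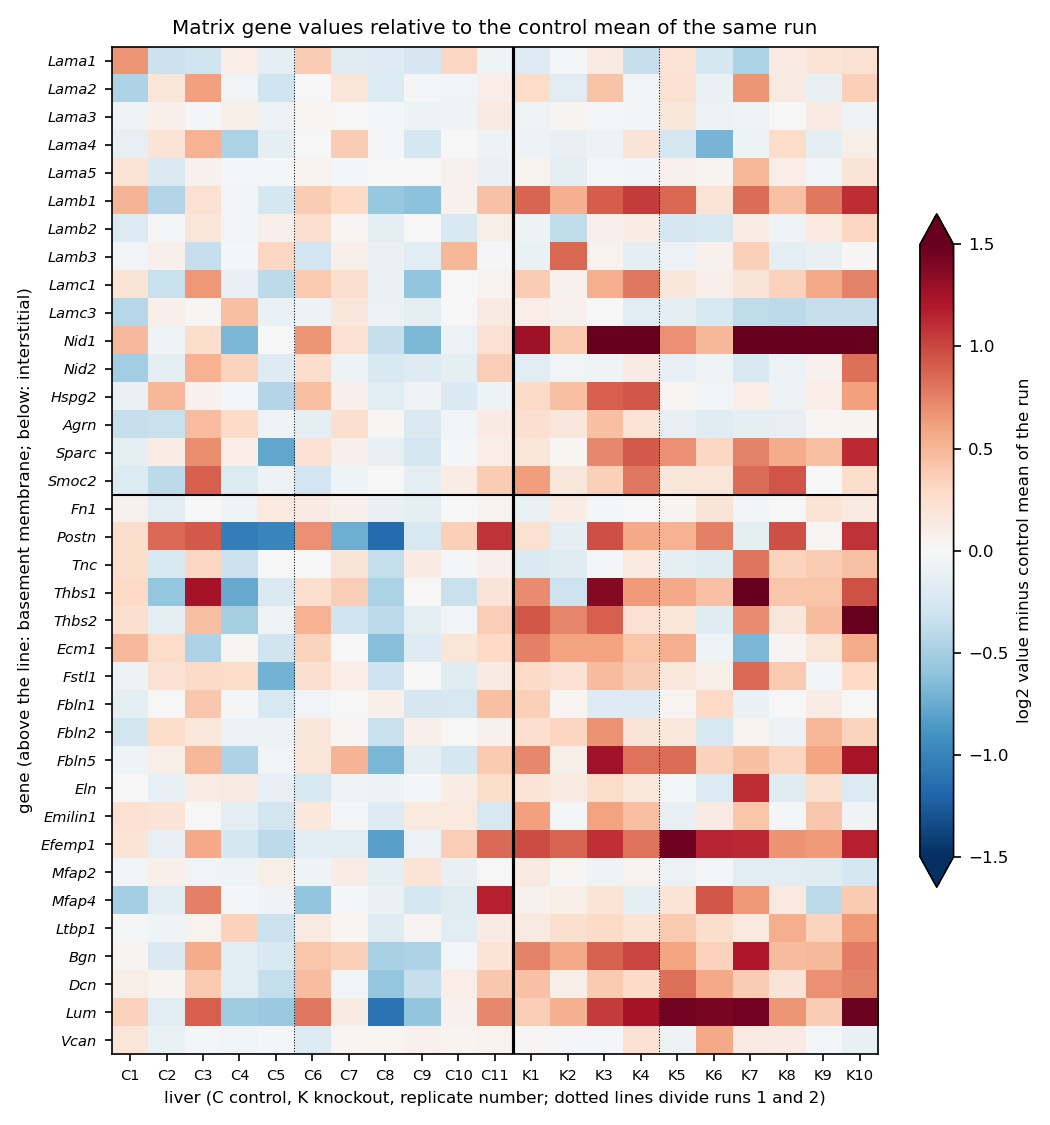
Each gene (rows) in each liver (columns) relative to the average control of its run (log2), with the colour scale ending at -1.5 and 1.5. The rows of Nid1, Lamb1, Efemp1, Bgn and Lum are red in all 10 knockout livers, most laminin rows are pale, and control replicates 3 and 11 are redder than the other controls.

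Among the 10 laminin chain genes 1 rose, and it was a beta chain. Lamb1, the beta 1 chain that takes part in most vascular laminins, ran from 4.62 to 5.96 in control livers (median 5.41) and from 5.43 to 6.50 in knockout livers (median 6.08). Of the 10 knockouts 8 were above every control, and the exceptions were replicates 6 and 8. The rise was 0.77 ± 0.15 (log2, SE; 1.70-fold; adjusted p = 0.00493), with 0.84 and 0.71 in runs 1 and 2. Lamc1, the gamma 1 chain that pairs with it, differed by 0.39 ± 0.14 and missed the threshold (adjusted p = 0.0814), although all 10 knockouts were above the control mean of their run. It passed without control replicate 3 (0.45, adjusted p = 0.0283). The shift of Lamb1 exceeded that of Lamc1 by 0.37 (95% interval 0.15 to 0.60) and in 10 of 10 knockout livers.

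No alpha chain gene passed. Lama4, the alpha chain of endothelial laminin, averaged 4.19 ± 0.32 (SD, n = 11) among controls against 4.12 ± 0.28 (SD, n = 10) among knockouts, a log2 difference of -0.08 with a 95% interval of -0.33 to 0.16. Lama5, the alpha chain of mature vessel laminin, had 0.06 (interval -0.07 to 0.195) and Lama2, the alpha chain of muscle laminin, 0.17 (interval -0.08 to 0.41). For Lama1 (-0.04) and Lama3 (0.00) the intervals also spanned 0. Lamb1 differed from Lama4 in its shift by 0.85 (interval 0.50 to 1.20), in 10 of 10 knockouts. Lamb2, the beta chain of mature basement membranes, had a difference of -0.03 (interval -0.20 to 0.14), and the shift of Lamb1 was larger by 0.79 (interval 0.48 to 1.10). Lamb3, a chain of epithelial laminin, had 0.08 (interval -0.16 to 0.33). Some chains were dim: the control mean of Lama3 was 3.38, under the array median of 3.75. Lamb3 (3.79), Lama5 (3.82) and Lamc3 (3.84) were little above that median. Lama4 (4.19), Lama2 (4.29), Lama1 (4.39) and Lamb2 (4.91) lay between the median and Lamb1, which was at 5.33. Lamc3 was -0.17 ± 0.08 (adjusted p = 0.223), with 0.00 in run 1 and -0.31 in run 2; it was the member with the lowest difference. These pairs were chosen after the results were known, so the intervals are a description and no test was made between genes.

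Nid1 had the largest change of the 36 genes. It encodes nidogen 1, the rod-like glycoprotein that links laminin to type IV collagen. Control livers had log2 values from 5.28 to 6.88 (median 6.18) and knockout livers from 6.45 to 8.73 (median 7.73), with 7 of 10 knockouts above every control. The knockouts within the control range were replicates 2, 5 and 6, and replicate 4 was highest. Nid1 rose by 1.47 ± 0.25 (SE; 2.77-fold; adjusted p = 0.00193), with 1.44 and 1.49 in runs 1 and 2. Its paralogue Nid2, which can stand in for it in some tissues, had 4.63 ± 0.34 (SD, n = 11) among controls against 4.65 ± 0.30 (SD, n = 10) in knockouts, a difference of 0.02 (95% interval -0.25 to 0.30). The shift of Nid1 exceeded that of Nid2 by 1.45 (interval 0.88 to 2.01), in 10 of 10 knockouts.

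Hspg2, which encodes perlecan, and Agrn, which encodes agrin, are the heparan sulfate proteoglycans of the sheet. Hspg2 differed by 0.34 ± 0.13 and missed the threshold (adjusted p = 0.106); the difference was 0.64 in run 1 against 0.12 in run 2. It was the 1 member of 36 whose genotype difference changed between runs at an unadjusted p under 0.05 (p = 0.0412 from limma; adjusted p = 0.463), where 10.2% of all genes did. Without control replicate 6 its genotype difference passed (adjusted p = 0.0495). Agrn had 0.07 ± 0.10, with an interval of -0.13 to 0.27.

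Sparc encodes osteonectin, a collagen-binding matricellular protein found in basement membranes and made by endothelial and mesenchymal cells. Its log2 values ran from 7.84 to 9.31 in controls (median 8.73) and from 8.65 to 9.93 in knockouts (median 9.35). Control replicate 3 had the highest control value, and 6 of 10 knockouts were above it. Sparc rose by 0.57 ± 0.15 (1.48-fold; adjusted p = 0.0216), with 0.47 and 0.64 in runs 1 and 2. The related Smoc2 differed by 0.44 ± 0.15 and missed the threshold (adjusted p = 0.0755), with 10 of 10 knockouts above the control mean of their run, and it passed without control replicate 3 (0.52, adjusted p = 0.0124). The shifts of Sparc and Smoc2 differed by 0.13 with an interval of -0.23 to 0.49.

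The promoters of Nid1 and Lamb1, the basement membrane genes with the lowest adjusted p, are shown because the deleted gene encodes a DNA-binding factor of the GATA family. Each is 300 bases of RefSeq sequence of build GRCm38.p6, from 250 before to 50 after the annotated start of the gene, read 5′ to 3′ on the strand of the gene. Capitals mark matches, on either strand, to the GATA motifs AGATAA and TGATAA, to the TATA motif TATAAA and to the GC box GGGCGG; all capitals in these 2 windows are GC boxes. The TATA and GC motifs were added after the windows had been seen.
Nid1, chr13:13437352-13437651, plus strand: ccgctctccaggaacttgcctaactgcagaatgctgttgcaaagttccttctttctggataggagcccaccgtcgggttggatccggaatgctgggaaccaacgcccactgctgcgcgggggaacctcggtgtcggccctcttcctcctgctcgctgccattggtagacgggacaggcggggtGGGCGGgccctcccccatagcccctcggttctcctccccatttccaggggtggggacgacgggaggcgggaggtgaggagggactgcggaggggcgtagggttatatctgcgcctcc
Lamb1, chr12:31265043-31265342, plus strand: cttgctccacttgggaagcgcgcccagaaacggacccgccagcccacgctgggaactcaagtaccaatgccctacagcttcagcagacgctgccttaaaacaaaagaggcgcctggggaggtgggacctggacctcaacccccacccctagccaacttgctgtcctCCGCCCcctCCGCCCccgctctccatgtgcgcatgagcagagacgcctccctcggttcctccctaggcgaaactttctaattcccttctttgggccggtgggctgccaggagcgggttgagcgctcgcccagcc
Nid1 has 1 GC box, whose first base is at -67 from the start, and Lamb1 has 2, at -84 and -75. Neither window holds AGATAA or TGATAA on either strand. Other strings with the letters GATA were not searched for, and the Nid1 window holds GGATAG and, on the minus strand, AGATAT. RefSeq windows were at hand for 23 of the 36 genes (31 windows, since some genes have several starts). Of these windows 1, at Fstl1, held AGATAA or TGATAA, and none of the 9 windows of the 7 risen genes with a sequence did. Of all 32851 promoter windows 18.6% did. The GC box was in 18 of the 31 windows and in 5 of those 9, beside 35.7% of all windows, and TATAAA in 5 of the 31 and none of the 9, beside 13.6%. By gene the GC box was in 16 of the 23 and in 5 of the 7, beside 38.2% of all genes. The median share of G and C bases was 52.7% over all windows. It was 64.7% for Nid1, 63.7% for Lamb1 and Bgn and 54.3% for Efemp1, and its part in the match counts was not tested. A match is a string of letters and not a site, and its lack in 300 bases says nothing of a factor acting elsewhere.

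Of the 4 proteoglycan genes of the interstitium 3 rose. Bgn encodes biglycan, a small leucine-rich proteoglycan that binds collagen and growth factors. It ran from 9.38 to 10.32 in controls (median 9.81) and from 10.21 to 11.08 in knockouts (median 10.49), and 9 of 10 knockouts were above every control, the exception being replicate 6. Bgn rose by 0.71 ± 0.13 (1.64-fold; adjusted p = 0.00363), with 0.80 and 0.65 in runs 1 and 2. Lum encodes lumican, which spaces collagen fibrils. Its values were wide in controls, from 4.41 to 6.87 (median 5.64), and ran from 5.90 to 7.23 in knockouts (median 6.95). Control replicate 3 had the highest control value, and 6 of 10 knockouts were above it. Lum rose by 0.995 ± 0.24 (1.99-fold; adjusted p = 0.0151), with 0.80 and 1.14 in runs 1 and 2.

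Dcn encodes decorin, which coats collagen fibrils and binds transforming growth factor beta. It ran from 9.61 to 10.77 in controls (median 10.29) and from 10.38 to 11.02 in knockouts (median 10.77), with 5 of 10 knockouts above every control. Dcn rose by 0.45 ± 0.12 (1.37-fold; adjusted p = 0.0304), with 0.30 and 0.57 in runs 1 and 2. Its call was lost without any 1 of control replicates 7, 8 and 9 and knockout replicates 3, 9 and 10, where the adjusted p reached 0.0597. The shift of Lum exceeded that of Dcn by 0.54 (95% interval 0.18 to 0.90), and that of Bgn exceeded it by 0.26 (interval -0.01 to 0.53). Vcan, the large hyaluronan-binding proteoglycan versican, was dim (2.83 ± 0.10, SD, n = 11, in controls, under the lower quartile of the arrays) and had a difference of 0.08 (interval -0.07 to 0.22).

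**Figure D3:**
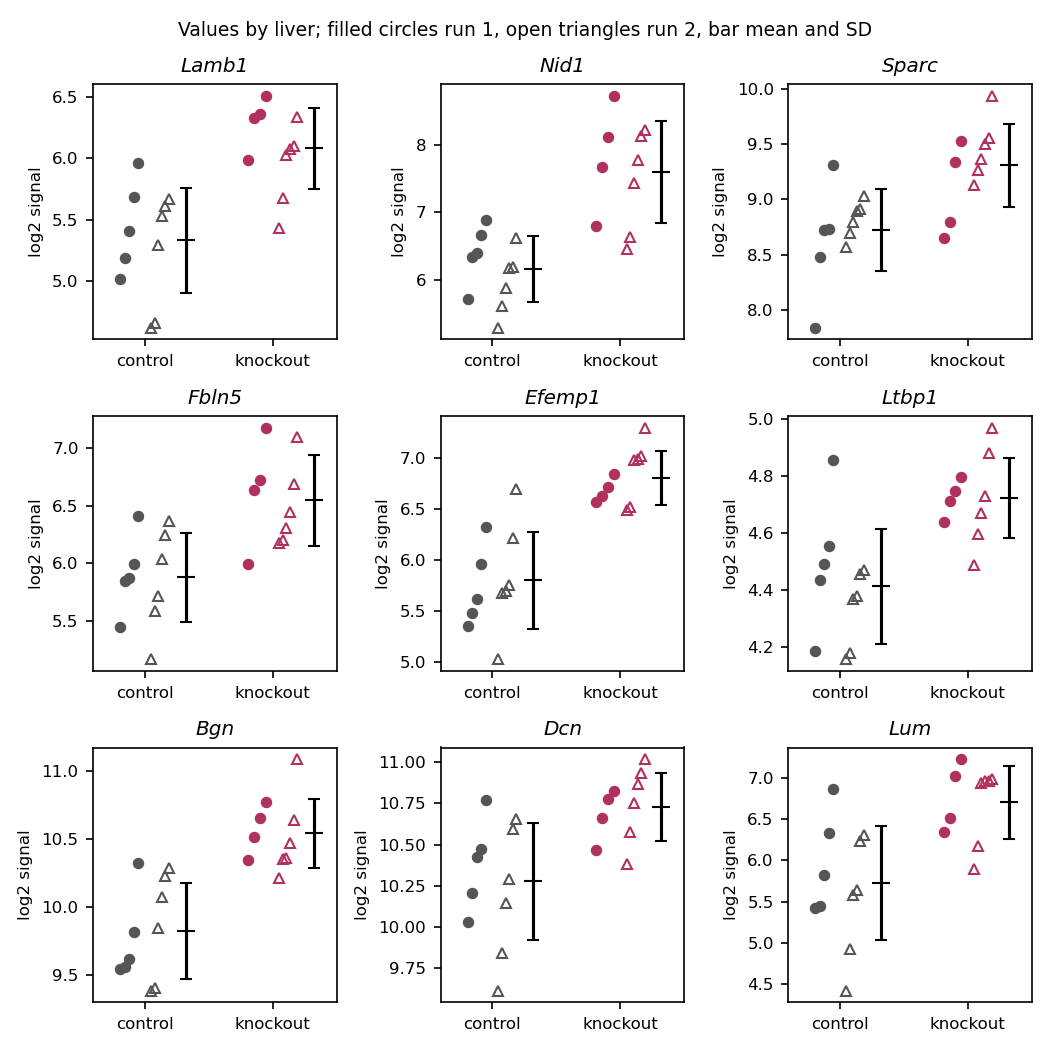
Log2 signal of each liver for the 9 genes that rose, 1 panel per gene with its own y axis, controls in grey and knockouts in red. Filled circles are run 1, open triangles run 2, and the bar gives the mean and SD of the group. In every panel the ranges overlap. For Efemp1 1 control lies above the lowest knockout and 6 of 10 knockouts lie above the highest control. For Bgn these counts are 3 and 9.

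Among the 9 measured genes of elastic fibres and microfibrils 3 rose. Efemp1 encodes fibulin 3, a short fibulin of basement membranes and elastic tissue. It ran from 5.03 to 6.70 in controls (median 5.69) and from 6.49 to 7.30 in knockouts (median 6.78). A single control, replicate 11, was above the lowest knockout, and 6 of 10 knockouts were above that control. Efemp1 rose by 0.996 ± 0.16 (SE; adjusted p = 0.00143), with 0.94 and 1.04 in runs 1 and 2, and had the lowest adjusted p of the 36 genes. Fbln5 encodes fibulin 5, which organises elastin on microfibrils and binds endothelial integrins. It ran from 5.17 to 6.41 in controls (median 5.87) and from 6.00 to 7.18 in knockouts (median 6.54), with 6 of 10 knockouts above every control. Fbln5 rose by 0.67 ± 0.16 (1.59-fold; adjusted p = 0.0162), with 0.72 and 0.63 in runs 1 and 2.

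Ltbp1 encodes a microfibril protein that anchors latent transforming growth factor beta. It ran from 4.16 to 4.86 in controls (median 4.44) and from 4.49 to 4.97 in knockouts (median 4.72); control replicate 4 was above 8 of the 10 knockouts and the next control was at 4.55. Ltbp1 rose by 0.31 ± 0.07 (1.24-fold; adjusted p = 0.0144), the smallest of the 9 rises. The other fibulins did not pass: Fbln1 had 0.03 (interval -0.16 to 0.23) and Fbln2, a fibulin of portal fibroblasts, 0.22 ± 0.09 (adjusted p = 0.160). The shift of Fbln5 exceeded that of Fbln1 by 0.64 (interval 0.25 to 1.03). Emilin1, an elastin-associated glycoprotein, had 0.25 ± 0.10 (adjusted p = 0.136), and Eln, the gene of elastin itself, 0.15 ± 0.12 (adjusted p = 0.510). Mfap4 had 0.21 (interval -0.19 to 0.60), and its highest value of all was in control replicate 11 (4.94). Mfap2, a microfibril glycoprotein, had -0.07 (interval -0.18 to 0.04).

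The promoters of Efemp1 and Bgn, the interstitial genes with the lowest adjusted p, are shown for the same reason, with capitals as above.
Efemp1, chr11:28852955-28853254, plus strand: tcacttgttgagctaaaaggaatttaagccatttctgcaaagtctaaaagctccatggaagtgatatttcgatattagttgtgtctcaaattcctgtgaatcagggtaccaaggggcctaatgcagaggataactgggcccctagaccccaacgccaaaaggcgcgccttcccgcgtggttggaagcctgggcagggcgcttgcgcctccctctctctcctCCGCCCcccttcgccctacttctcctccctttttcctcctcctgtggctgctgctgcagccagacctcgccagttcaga
Bgn, chrX:73483351-73483650, plus strand: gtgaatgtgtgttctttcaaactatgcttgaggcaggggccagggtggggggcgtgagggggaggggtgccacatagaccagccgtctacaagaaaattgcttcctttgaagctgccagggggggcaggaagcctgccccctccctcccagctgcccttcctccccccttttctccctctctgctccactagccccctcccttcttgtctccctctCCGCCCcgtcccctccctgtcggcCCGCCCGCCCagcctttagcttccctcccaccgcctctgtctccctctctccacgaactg
Efemp1 has 1 GC box at -29 and Bgn 3, at -34, -10 and -6, with the last 2 overlapping. Neither holds a GATA motif or TATAAA.

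None of the 7 adhesive and matricellular glycoprotein genes passed, although each had a difference above 0. Thbs2, a thrombospondin of fibroblasts, came nearest to the threshold, with 4.88 ± 0.35 (SD, n = 11) in controls, 5.44 ± 0.51 (SD, n = 10) in knockouts and a difference of 0.57 ± 0.18 (SE; adjusted p = 0.0522). It passed without any 1 of 7 livers, control replicates 3 (adjusted p = 0.0410) and 11 (adjusted p = 0.0443) among them. Thbs1, a thrombospondin of platelets and activated stroma that can activate latent transforming growth factor beta, had 0.67 ± 0.23 (adjusted p = 0.0771). Control replicate 3 had a Thbs1 value of 5.42, above 8 of 10 knockouts, and without it the difference was 0.80 (adjusted p = 0.0151); it also passed without knockout replicate 2. The platelet markers had 1 of 6 members higher, Pf4, where 3.28% of all genes were. Their mean log2 level was 3.35 to 3.66 in controls and 3.40 to 4.26 in knockouts. The part of these markers in the values of Thbs1 was not tested.

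Fn1, the fibronectin gene, had the smallest difference of the 7. It ran from 12.16 to 12.596 in controls and from 12.26 to 12.56 in knockouts, and its difference was 0.05 (95% interval -0.05 to 0.15). Postn, the gene of periostin, a matricellular protein of fibrosis, ran from 3.80 to 6.40 in controls, a range wider than the 4.81 to 6.45 of knockouts, and had 0.48 ± 0.29 (adjusted p = 0.353). Tnc, the gene of tenascin C of injured tissue, had 0.13 (interval -0.12 to 0.37), and its control mean of 3.22 was under the array median. Fstl1, a secreted follistatin-like glycoprotein, had 0.31 ± 0.12 (adjusted p = 0.113). Ecm1, a secreted glycoprotein that stellate cells and hepatocytes can make, had 0.31 ± 0.16 (adjusted p = 0.264), with 0.59 in run 1 and 0.10 in run 2.

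Each of the 9 risen genes was higher in both runs, from which they had been chosen together. No member passed the test of the genotype by run term in limma (0 of 36, and 1 at an unadjusted p under 0.05), where 0.0315% of all genes passed it. In run 1 alone, with 4 knockouts against 5 controls, no member passed, where 0.0118% of all genes did (0.00787% as higher). In run 2 alone Nid1, Efemp1, Sparc and Ltbp1 passed as higher and Lamc3 as lower (adjusted p = 0.0325), where 5.06% of all genes passed (2.17% as higher and 2.89% as lower). Of the 36 genes 26 had the same sign in both runs, where 14746 of all 25428 genes did. By compartment these were 9 of 16 basement membrane genes and 17 of 20 interstitial genes.

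**Figure D4:**
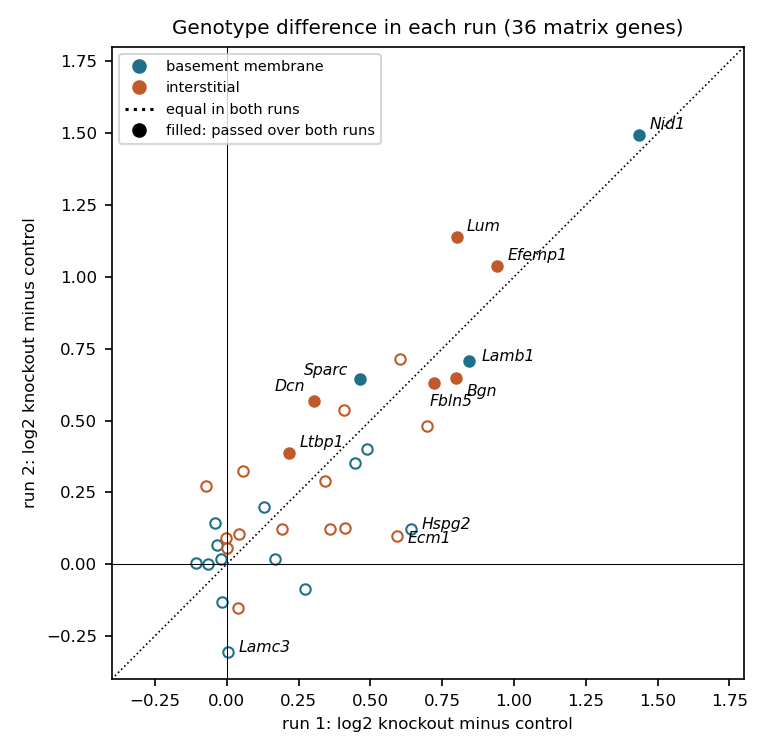
Log2 difference in run 2 (y axis) against run 1 (x axis) for the 36 genes, with the dotted line where both are equal. The 9 risen genes, filled, all lie above 0 on both axes; Hspg2 and Ecm1 lie near 0.6 in run 1 and 0.1 in run 2, and Lamc3 lies at -0.31 in run 2.

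Brightness was shared by the risen genes: each had a control mean over the array median, where 5.19% of all such genes were higher. Of the 9 members with a control mean over the upper quartile 4 rose, beside 5.69% of all genes that bright. The 5 members with a control mean under the array median did not pass, and low RMA values can lie close to background, which was not examined here. The median standard error was 0.123 over the members and 0.078 over all genes.

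Receptors of these matrix proteins were followed as a list of 31 integrins, syndecans and other surface proteins, of which 3 rose and none fell (9.68% higher, beside 3.28% of all genes; median difference 0.18). Itga4, an integrin chain of leukocytes that binds fibronectin, rose by 0.85 ± 0.21 (adjusted p = 0.0163). Cd47, a receptor of thrombospondin on many cells, rose by 0.25 ± 0.07 (adjusted p = 0.0294), which missed the threshold without control replicate 8 or 9 (adjusted p up to 0.0573). Dag1, the dystroglycan that binds laminin, perlecan and agrin, rose by 0.24 ± 0.07 (adjusted p = 0.0475), but missed the threshold when any 1 of 14 livers was omitted (adjusted p up to 0.0905; 0.0616 without control replicate 3) or when run was dropped from the model (adjusted p = 0.164). A second list of 61 other non-collagen matrix genes, 58 of them measured, had 8 higher and 1 lower (median difference 0.04). This was 13.8% higher and 15.5% in either direction, beside 3.28% and 7.33% of all genes. Esm1, the proteoglycan endocan of endothelial tip cells, rose by 2.05 ± 0.25 (adjusted p = 1.71e-04), with 1.26 in run 1 against 2.64 in run 2; the genotype by run term had an unadjusted p of 0.00444 in limma (adjusted p = 0.239). Tgfbi, a collagen-binding adhesion protein, rose by 1.07 ± 0.14 (adjusted p = 2.16e-04), and Sparcl1, the paralogue of Sparc also called hevin, by 1.37 ± 0.23 (adjusted p = 0.00149). The lower gene was the small leucine-rich proteoglycan Fmod (-0.25 ± 0.07; adjusted p = 0.0418), named after its value was seen; it missed the threshold when any 1 of 12 livers was omitted (adjusted p up to 0.0804; 0.0512 without control replicate 3). Over the 30 alternative fits described at the end, Fmod passed in 14, Dag1 in 10 and Cd47 in 25. Itga4, Esm1, Tgfbi and Sparcl1 each passed in 29. Collagen genes, by symbol, had 6 of 44 members higher and 2 lower, with a median difference of -0.03. This was 13.6% higher and 18.2% in either direction, beside 3.28% and 7.33% of all genes.

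Markers of cells that can make matrix moved unequally, and their part in the matrix values was not tested. Over all genes 3.28% were higher and 4.05% lower. Of 12 hepatic stellate cell markers 5 rose and none fell. The 2 with the lowest adjusted p were the globin gene Cygb (0.96 ± 0.15) and the receptor gene Pdgfrb (0.59 ± 0.12). The other 7 did not pass, among them Lrat (0.24, adjusted p = 0.416), Des (0.14, adjusted p = 0.555) and Hand2 (0.07). Differences were below 0 for 2 of these, Vipr1 (-0.15) and Ngfr (-0.01). The mean log2 level of the 12 markers ran from 5.96 to 6.51 in controls and from 6.47 to 6.86 in knockouts, and 2 controls lay above the lowest knockout. Continuous endothelial markers, which include Esm1, had 6 of 10 higher and none lower, with a level of 4.54 to 4.999 in controls and 5.17 to 5.95 in knockouts, which do not overlap. Sinusoidal endothelial markers had 5 of 10 lower and none higher, at 6.31 to 7.35 in controls and 5.97 to 6.73 in knockouts. This list includes the deleted gene Gata4 and the driver gene Clec4g, and Clec4g is 1 of the 5 lower genes. Lyve1 was the 1 gene of the list with a difference above 0 (0.58), which did not pass. Macrophage markers had 4 of 8 higher, at 5.58 to 7.91 in controls and 6.87 to 7.83 in knockouts.

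The contractile markers of myofibroblasts and smooth muscle had 0 of 7 members past the threshold in limma and 0 at an unadjusted p under 0.05. Over all genes 7.33% passed the threshold (3.28% as higher) and 22.4% had an unadjusted p under 0.05. The level of the contractile markers ran from 4.31 to 5.68 in controls and from 4.37 to 5.01 in knockouts. Acta2, the smooth muscle actin of activated stellate cells, had a difference of 0.34 ± 0.31 (adjusted p = 0.571). Portal fibroblast markers had 1 of 8 higher, Cd34, which is also on the continuous endothelial list, at 4.20 to 5.02 in controls and 4.29 to 4.70 in knockouts. Mesothelial markers had 0 of 7 past the threshold (2 at an unadjusted p under 0.05), at 3.99 to 4.33 and 3.92 to 4.44, and cholangiocyte markers 0 of 6 measured (1 at an unadjusted p under 0.05), at 3.37 to 3.88 and 3.59 to 4.33. The bile duct keratin gene Krt19 was at 3.13 in controls and 3.13 in knockouts, under the array median.

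**Figure D5:**
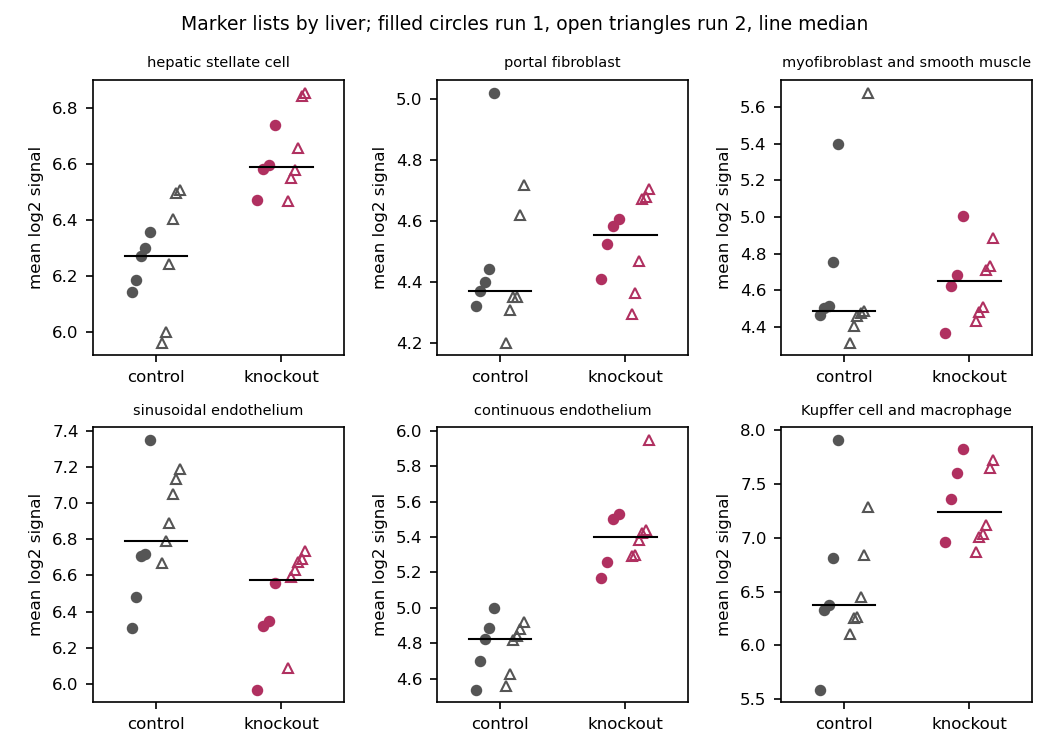
Mean log2 signal over the measured genes of 6 marker lists (y axis, its own scale per panel) for each control and knockout liver; filled circles are run 1, open triangles run 2, and the line is the group median. Continuous endothelial levels of knockouts (5.17 to 5.95) lie above all controls (4.54 to 4.999), stellate levels overlap in 2 controls, and contractile levels overlap widely.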

How the data were processed

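Deposited log2 values made by the authors with RMA, per the submitters' processing notes, were used for 21 whole livers; RMA subtracts background, equalises arrays by quantiles and summarises probes, so changes are relative to the array as a whole. The RMA version is not given in the sources used here; scanner files were not used, and precision is limited by the number of arrays. Of 25428 rows, each an Entrez gene number, 24705 had 1 symbol in the platform annotation. Knockout minus control was fitted on all rows with lmFit and eBayes of limma 3.58.1 (R 4.3.3), with genotype and number run as terms, Benjamini-Hochberg adjustment over all rows and a threshold of 0.05; each run alone and a genotype by run term were fitted the same way. The script was tested on simulated data. Members, lists and the choice of named genes were made with earlier results of these data known; all 38 members were eligible, plus Gata4 and Clec4g, the 3 passing genes with the lowest adjusted p of each of the receptor and other matrix lists, and promoters of the 2 genes with the lowest adjusted p in each compartment. Single genes of the marker lists were named after their values were seen. Promoter windows came from RefSeq (GRCm38.p6). Python 3.11.15 and matplotlib 3.10.9 drew the figures.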

Additional observations from a re-analysis of the deposited data

Results flagged for a closer look

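Dixon's ratio, the gap of an end value to its neighbour over the range, was above 0.466 among the 10 knockout livers for 5 of 36 genes, and chance alone flags about 1 in 20 groups. Eln had 1 high liver, replicate 7 (5.24, next 4.37; ratio 0.660). The same liver was high for Lama5 (4.32, next 4.002; ratio 0.506). Lamb3 was high in knockout replicate 2 (4.72, next 4.09; ratio 0.562) and Nid2 in replicate 10 (5.37, next 4.87; ratio 0.470). Vcan was high in replicate 6 (3.39, next 3.06; ratio 0.486). None of the 5 is among the 9 genes that rose. The 11 controls were not examined in this way.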

How the results depend on the processing

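Alternatives tried were a model with genotype alone, each run alone, the replicate number as a block, a second quantile normalization, median centring, no dim genes, a trend with robust prior, array weights and leaving out each array. The 9 risen genes kept their direction in all of them, but they were chosen on these same livers, so this is not separate support. In run 1 alone 2 of all genes were higher and 1 lower, with 0 members, 0 basement membrane and 0 interstitial genes higher; in run 2 alone 552 of all genes were higher, 4 members and 2 interstitial genes higher and 1 member lower; fewer livers entered these fits. With the replicate number as a block 9 members were higher and 602 of all genes lower. Ltbp1 did not pass in limma (adjusted p = 0.103) and Thbs1 did (adjusted p = 0.0296). This fit left out control replicate 11, which has no knockout of its number, and the livers numbered 5 are a control of run 1 and a knockout of run 2. Of 10 same-numbered pairs 2 deviated together (correlation over 0.1). Since also only 1 of 10 knockout livers deviated most like the control of its own number, the numbers were not taken as a pairing. The cause of these changes was not tested. Without dim genes 12 members were higher (Smoc2, Thbs1 and Thbs2 added), and with array weights or the trend 10. Leaving out single livers gave 8 to 13 members higher, 0 to 1 lower, 3 to 5 basement membrane and 5 to 8 interstitial genes higher, and 565 to 981 of all genes higher and 629 to 1471 lower. Over single livers left out, median differences ran from 0.06 to 0.11 for basement membrane and from 0.25 to 0.33 for interstitial genes. In run 1 alone these medians were 0.15 and 0.35, and with array weights the interstitial median was also 0.35.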
